A study of Mus musculus with 8 samples.

Results

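The machinery that brings secreted and membrane proteins into the endoplasmic reticulum (ER), and folds them there, was followed in mouse testes after busulfan, an alkylating agent toxic to dividing germ cells. Members were chosen by gene name, with no measured value in the rule. They were the signal recognition particle (Srp), the Sec proteins, the translocon-associated proteins (Ssr) and Tram1, the signal peptidase (Spcs), the oligosaccharyltransferase (Rpn1, Rpn2, Ddost, Dad1, Ost4), the folding chaperones and disulfide isomerases (Hspa5, Hsp90b1, Canx, Calr, Clgn, P4hb, Pdia), and the cargo and retrieval receptors (Tmed, Kdelr). Of the 2783 reference sequences in the table, here called contigs, 44 from 39 genes were members. Of the germ-line chaperones under the rule, Clgn was in the table and Calr3 and Pdilt were not analysed here.

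In this pathway the signal recognition particle binds a signal peptide as it leaves the ribosome and docks the ribosome on the ER. The Sec61 channel lets the chain through, the signal peptidase cuts the signal peptide off, and the oligosaccharyltransferase attaches sugar chains. Chaperones and disulfide isomerases then fold the protein, and coated vesicles with their cargo receptors carry it to the Golgi. In the testis, Leydig and Sertoli cells secrete hormones and transport proteins through this route. Germ cells use it for the sperm surface and the acrosome, with chaperones of their own such as calmegin (Clgn).

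Poly(A) RNA of whole testes from adult male mice was sequenced directly on Nanopore flow cells, so that 1 read is 1 RNA molecule with a measurable poly(A) tail. The 4 groups were Tent5c wt/wt (wt) or Tent5c dcat/dcat (dcat) mice, given vehicle or a single injection of busulfan at 20 mg/kg, with testes taken 4 weeks later. Tent5c is the gene of a poly(A) polymerase of the cytoplasm, and dcat encodes the protein without its catalytic activity in all cell types. Since the dead protein keeps its mRNA, read counts of Tent5c do not check the genotype labels. Each group had 2 mice and 2 libraries. The strain was kept by backcross to C57BL/6J. Male mice were euthanized at 8 to 12 weeks of age, a range stated for all experimental males and not by group.

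On the 2783 contigs, the 8 libraries held 29574 to 129074 reads, 621202 in all, and the members held 234 to 1544 reads per library. The study reports more reads for each library after its quality check, before contigs with few reads were removed. Here and below, shares, scaled values and all reads refer to the reads on these contigs. The dcat vehicle group combined the shallowest library (replicate 1), with 8 members at 10 reads or more, and the deepest (replicate 2), with 31. The germ cell and somatic markers followed the labels of treatment. After busulfan, markers of late spermatids fell in wt mice from 116250 ± 7866 to 11299 ± 2534 RPM, that is, reads scaled to a library of 1000000 reads, (SD, n = 2), and in dcat mice from 105250 ± 12604 to 31396 ± 12519. Leydig cell markers rose in wt mice from 6122 ± 438 to 50562 ± 3099, and in dcat mice from 6091 ± 2576 to 28863 ± 4519, with 17 of 17 contigs called higher in both genotypes. Of these markers Insl3, which the study names as a target of Tent5c, held the most reads. After busulfan it had 2082 and 4197 reads in wt and 930 and 1329 in dcat. It was called lower in dcat than in wt (log2 -1.18, edgeR adjusted p = 0.0299), so the Leydig sums depend on genotype through this gene. Sertoli cell markers rose from 4174 ± 135 to 37024 ± 459.8 and from 4929.7 ± 1636 to 29342 ± 7406, with 12 of 12 contigs called. Mitochondrial contigs took 4.38 to 6.08% of reads after vehicle and 14.0 to 16.2% after busulfan. In whole testis, fewer cells of a type and less RNA per cell cannot be told apart, and the part of these shifts in cell types in the changes given next was not tested.

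The promoters of ER chaperones are known for the ER stress element, a composite site at which the factors NF-Y and ATF6 act together. Its letters, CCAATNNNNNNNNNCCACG, were searched on both strands of the RefSeq promoters of GRCm38.p6, from 250 bases before to 50 bases after each start. They stood in 39 of 32851 promoters (0.119%). Of the 39 member genes, 32 had a promoter in that table and 5 of the 32 held the letters: Hspa5, Hsp90b1 (in 2 places), Canx, Calr and Pdia6. These are 4 chaperones of the ER and a disulfide isomerase. Their matches are shown because 4 of the 5 genes were called higher after busulfan in both genotypes. Among all 2783 contigs, 790 were called higher and 850 lower in both. Whether the element acted in these testes was not tested. The shorter letters ATTGGNCCACG (ER stress element II) stood in 12 promoters (0.037%), of which 0 belonged to members. Capitals mark the fixed letters, and each sequence is given 5′ to 3′ on the strand of the gene.
Hspa5: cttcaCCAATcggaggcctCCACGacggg
Hsp90b1, nearer match: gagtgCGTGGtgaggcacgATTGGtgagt
Hsp90b1, farther match: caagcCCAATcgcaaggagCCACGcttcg
Canx: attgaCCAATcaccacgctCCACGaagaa
Calr: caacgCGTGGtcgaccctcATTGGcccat
Pdia6: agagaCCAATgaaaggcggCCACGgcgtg
The stretch shown for Hspa5, flanking bases included, lies at chr2:34772020-34772048 on the plus strand. Its match begins 65 bases before the RefSeq start site, and positions and distances of the other genes are given in the same way. It lies before the Hspa5 contig ENSMUST00000100171, which starts at chr2:34772095. It lies inside the first exon (chr2:34771970-34772146) of the Hspa5 contig with the most reads, ENSMUST00000028222. The stretches of Hsp90b1 lie at chr10:86705528-86705556 (107 bases before the start) and chr10:86705633-86705661 (212 bases before), on the minus strand. Those of Canx at chr11:50325795-50325823 (145 bases before) and Calr at chr8:84847070-84847098 (162 bases before) lie on the minus strand, and that of Pdia6 at chr12:17266486-17266514 (98 bases before) on the plus strand. The Calr match and the nearer Hsp90b1 match are read on the opposite strand, so that they begin with the reverse complement of CCACG.

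The members that were lower after busulfan included Clgn, Spcs1 and Spcs2, and the last 30 bases of their contigs are shown because direct RNA reads start there, at the tail. Capitals mark the AATAAA signal that precedes cleavage and polyadenylation.
Clgn: tttccctAATAAAagataaatatatatgta
Spcs1: gtataatgAATAAAcacttcataacttgta
Spcs2: gaaaAATAAAatagccacttgtaaaagctc
In GENCODE vM21 on GRCm38, these are chr8:83428523-83428552 (plus strand), chr14:30999826-30999855 (minus strand, shared by both Spcs1 contigs) and chr7:99839681-99839710 (minus strand). AATAAA or ATTAAA stood in the last 30 bases of 31 of the 44 members and of 1862 of the 2738 annotated contigs (68.0%).

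The members took a larger share of the reads on the 2783 contigs after busulfan. In wt mice the share was 0.658% (95% Wilson interval 0.591 to 0.732) and 0.783% (0.721 to 0.85) in the vehicle libraries, and 1.33% (1.25 to 1.42) and 1.34% (1.27 to 1.41) in the busulfan libraries, given here and below in the order of replicates 1 and 2. In dcat it was 0.791% (0.696 to 0.899) and 0.742% (0.697 to 0.791) after vehicle and 1.15% (1.07 to 1.24) and 1.14% (1.07 to 1.20) after busulfan. Busulfan and vehicle libraries did not overlap in either genotype. With 2 libraries against 2, an exact two-sided permutation test cannot go below 0.333, so that the share itself was not tested.

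Which contigs could enter the table bears on this comparison. The deposited table kept a contig when some group had 10 reads or more in each of its libraries. For a treatment to count here, a group of either genotype was enough. Of the 44 members, 25 met the minimum in busulfan groups alone, 5 in vehicle groups alone and 14 in both, against 1207, 898 and 678 of all 2783. The 5 were Clgn, Spcs2, Tram1 and the second contigs of Spcs1 and Srp9. The 25 were all 8 contigs of the cargo receptors, 8 of the 10 of the translocon (all but Sec61b and Tram1), Canx, P4hb, Pdia5, Rpn2, Ddost, Sec22b, Sec23ip, Srp54a and Srp54b. Entry through 1 treatment favours contigs with more reads there, without fixing the direction of each, as Sec23ip, which entered through busulfan, had log2 differences of -0.41 and -0.96. The direction, fold change and p-value of a contig that entered this way are therefore a description of its reads and no support by themselves, here and below. Of the 25, 17 were called higher in wt and 12 in dcat by edgeR, beside 69.8% and 61.1% of the 1207. Of the 5, 4 were called lower in each genotype, beside 94.8% and 82.3% of the 898. Marker contigs entered in the same way, with 13 of 17 of the Leydig cell and 6 of 12 of the Sertoli cell through busulfan alone. The 14 that met the minimum under both treatments, a subset chosen after seeing the data, gave 6 contigs called higher and 0 lower in wt by edgeR. Among all 678 such contigs, 21.1% were called higher and 31.7% lower. The 6 were both contigs of Hspa5, Hsp90b1, Calr, Pdia3 and Sec61b. In dcat, 5 were called higher and 1 lower, against 19.6% and 19.9% of the 678, and the 5 were the same contigs without Sec61b. The 1 lower was the contig of Spcs1 with the most reads. The median log2 change of the 14 was 0.38 in wt, against -0.28 over the 678, and 0.71 in dcat, against -0.07. After vehicle, Calr (9 and 25 reads in wt) and Sec61b (1 and 9) met the minimum in dcat alone. Both Hspa5 contigs (4 and 26, and 4 and 28 reads in dcat), Hsp90b1 (9 and 49) and Pdia3 (3 and 45) met it in wt alone.

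Over all 44 members, edgeR's quasi-likelihood test with Benjamini-Hochberg adjustment called 23 contigs higher and 4 lower after busulfan in wt, beside 35.4% called higher and 38.3% called lower among all 2783. In dcat it called 17 higher and 5 lower, beside 31.3% and 31.4%. The median log2 change of the members was 1.26 in wt (0.09 over all contigs) and 0.73 in dcat (0.14 over all), and these medians include the 25 contigs that entered through busulfan groups. In both genotypes, 16 members were called higher and 3 lower, and 0 were called in opposite directions. The shared calls were 70.4% of the wt calls and 86.4% of the dcat calls, against 79.9% and 93.9% over all contigs. DESeq2 called 13 members in wt (11 higher, 2 lower) and 6 in dcat (3 higher, 3 lower). Without wt busulfan replicate 2, edgeR called 16 in wt. Without dcat vehicle replicate 2, which leaves the shallowest library alone in its group, it called 9 in dcat (6 higher, 3 lower).

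**Figure D1:**
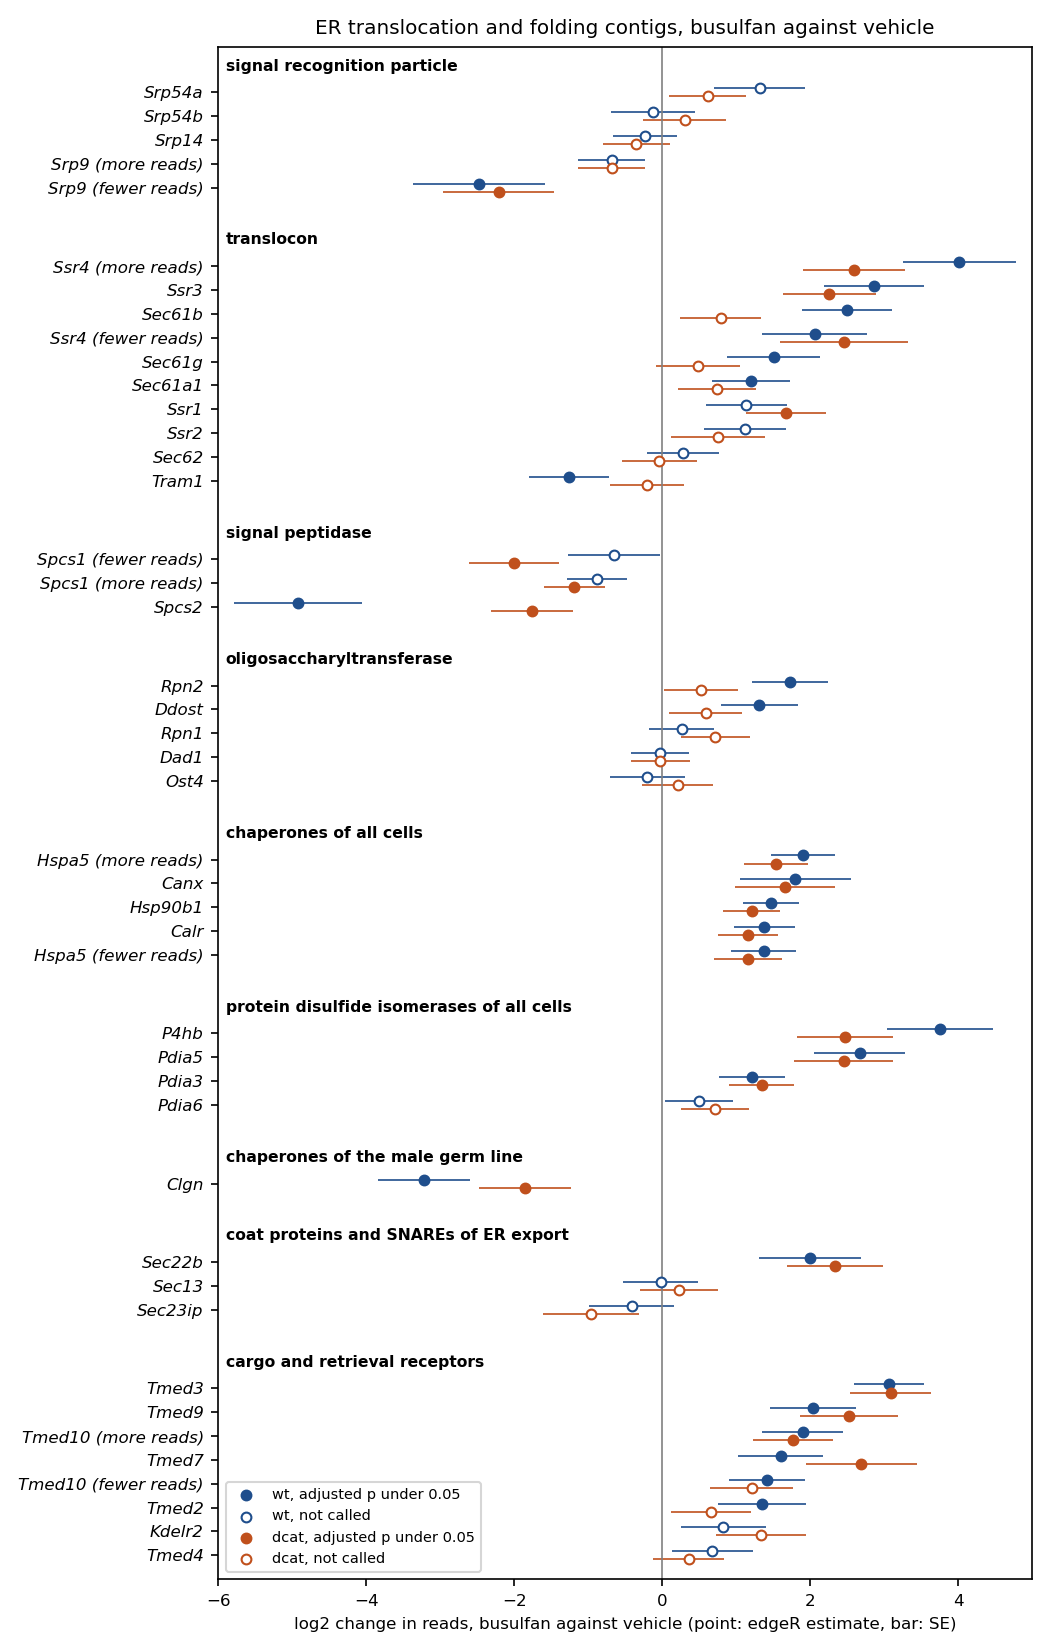
Log2 change in reads of each of the 44 contigs after busulfan, ordered by role, in wt (blue) and dcat (orange), with points at the edgeR estimate, bars of 1 SE and filled points for an adjusted p under 0.05. The chaperones of all cells lie to the right of 0 in both genotypes, at 1.16 to 1.90, while the signal peptidase and Clgn lie to the left, and Dad1 and Srp14 lie within 1 SE of 0.

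The chaperones of all cells rose in both genotypes, with 5 of 5 contigs called, beside 35.4% of all contigs called higher in wt and 31.3% in dcat. All but Canx had met the read minimum under both treatments. Summed over their contigs they went in wt mice from 1084 ± 55.6 to 3240.0 ± 85.5 RPM of all reads (SD, n = 2), and in dcat mice from 1114 ± 45.7 to 2719 ± 42.5. Hspa5 encodes BiP, the ER member of the Hsp70 family, which binds unfolded chains and gates the translocon. Its contig with the most reads (ENSMUST00000028222, chr2:34771970-34777547, plus strand) stood at 194 and 157 TMM-scaled RPM with vehicle and 589 and 716 with busulfan in wt mice, and 133 and 208 with vehicle and 594 and 499.9 with busulfan in dcat mice. Every busulfan library lay above every vehicle library. The log2 change was 1.90 (SE 0.44, edgeR adjusted p = 0.000441) in wt, a 3.74-fold rise, and 1.54 (SE 0.44, adjusted p = 0.00434) in dcat, a 2.91-fold rise. A second contig with an earlier 3′ end (ENSMUST00000100171, chr2:34772095-34776531) rose by 1.37 in wt (adjusted p = 0.00681) and 1.17 in dcat (adjusted p = 0.0299). With the reads of both summed, the log2 changes were 1.70 (SE 0.36) and 1.35 (SE 0.37).

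Hsp90b1 encodes Grp94, the Hsp90 of the ER, which folds a narrower set of clients that includes integrins and Toll-like receptors. It stood at 407 and 343 scaled RPM with vehicle and 1021 and 1045 with busulfan in wt mice, and 299 and 391 with vehicle and 739 and 924 with busulfan in dcat mice. The groups did not overlap, and the rise was 2.76-fold in wt (log2 1.47, SE 0.38, edgeR adjusted p = 0.00133) and 2.32-fold in dcat (log2 1.21, SE 0.38, adjusted p = 0.00933). Calr and Canx encode calreticulin and calnexin, the lectin chaperones that hold glycoproteins until they are folded. Calr stood at 174 and 357 with vehicle and 694 and 734 with busulfan in wt mice, and 398 and 319.5 with vehicle and 819 and 739 with busulfan in dcat mice. Calr thus separated the treatments in both genotypes, with log2 changes of 1.38 (SE 0.41, adjusted p = 0.00435) and 1.16 (SE 0.41, adjusted p = 0.0165). Canx had few reads, at 0 and 71.5 with vehicle and 91.6 and 188 with busulfan in wt mice, and 99.6 and 39.9 with vehicle and 209 and 141 with busulfan in dcat mice. Its changes of 1.80 (SE 0.75, adjusted p = 0.0337) and 1.66 (SE 0.68, adjusted p = 0.0361) were close to the threshold. The Canx call was lost without wt vehicle replicate 1 (1.19, adjusted p = 0.179) or wt busulfan replicate 2 (1.14, adjusted p = 0.319) in wt, and without dcat vehicle replicate 2 (0.84, adjusted p = 0.518) or dcat busulfan replicate 1 (1.40, adjusted p = 0.0990) in dcat. With the replicate number as a block it was lost in dcat (1.69, adjusted p = 0.0517). The Calr call in dcat was lost without dcat vehicle replicate 2 (1.04, adjusted p = 0.119).

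The protein disulfide isomerases, which make and rearrange disulfide bonds, were called higher in 3 of 4 contigs in both genotypes, beside 35.4% and 31.3% of all contigs. P4hb and Pdia5 entered the table through busulfan groups alone, while Pdia3 and Pdia6 met the read minimum under both treatments. P4hb encodes the founding member of the family, also a subunit of collagen prolyl hydroxylase. It stood at 38.7 and 14.3 with vehicle and 353 and 358 with busulfan in wt mice, and 99.6 and 32.0 with vehicle and 161 and 359 with busulfan in dcat mice. With 3 reads in the wt vehicle group against 65 after busulfan, the ratio of pooled reads was 14.4 (95% counting interval 4.72 to 71.7), and the fitted change had an adjusted p of 6.8e-05 by edgeR. In dcat P4hb rose 5.56-fold (log2 2.48, SE 0.65, adjusted p = 0.00256). Pdia5 rose by 2.67 on the log2 scale in wt (SE 0.62, adjusted p = 0.000485) and by 2.46 in dcat (SE 0.67, adjusted p = 0.00338). It went in wt mice from 58.1 and 28.6 to 249 and 292 and in dcat mice from 33.2 and 32.0 to 225 and 152. Pdia3 (ERp57), the partner of calnexin and calreticulin, stood at 329 and 243 with vehicle and 549.7 and 753 with busulfan in wt mice, and 99.6 and 359 with vehicle and 594 and 804 with busulfan in dcat mice. It rose by 1.21 (SE 0.45, adjusted p = 0.0171) and 1.35 (SE 0.44, adjusted p = 0.0112). Pdia6 did not pass the test, although its busulfan libraries lay above its vehicle libraries, at 194 and 243 against 249 and 367 in wt and 232 and 208 against 321 and 380.4 in dcat, with log2 differences of 0.50 (SE 0.46) and 0.71 (SE 0.46). Leaving out 1 library ended some of these calls. Without wt busulfan replicate 2 the Pdia3 value in wt was 0.95 (adjusted p = 0.143), and without dcat busulfan replicate 2 the values in dcat were 1.08 for Pdia3 (adjusted p = 0.0541) and 1.74 for P4hb (adjusted p = 0.0604). Without dcat vehicle replicate 2 they were 1.49 for P4hb (adjusted p = 0.173) and 2.48 for Pdia5 (adjusted p = 0.103).

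**Figure D2:**
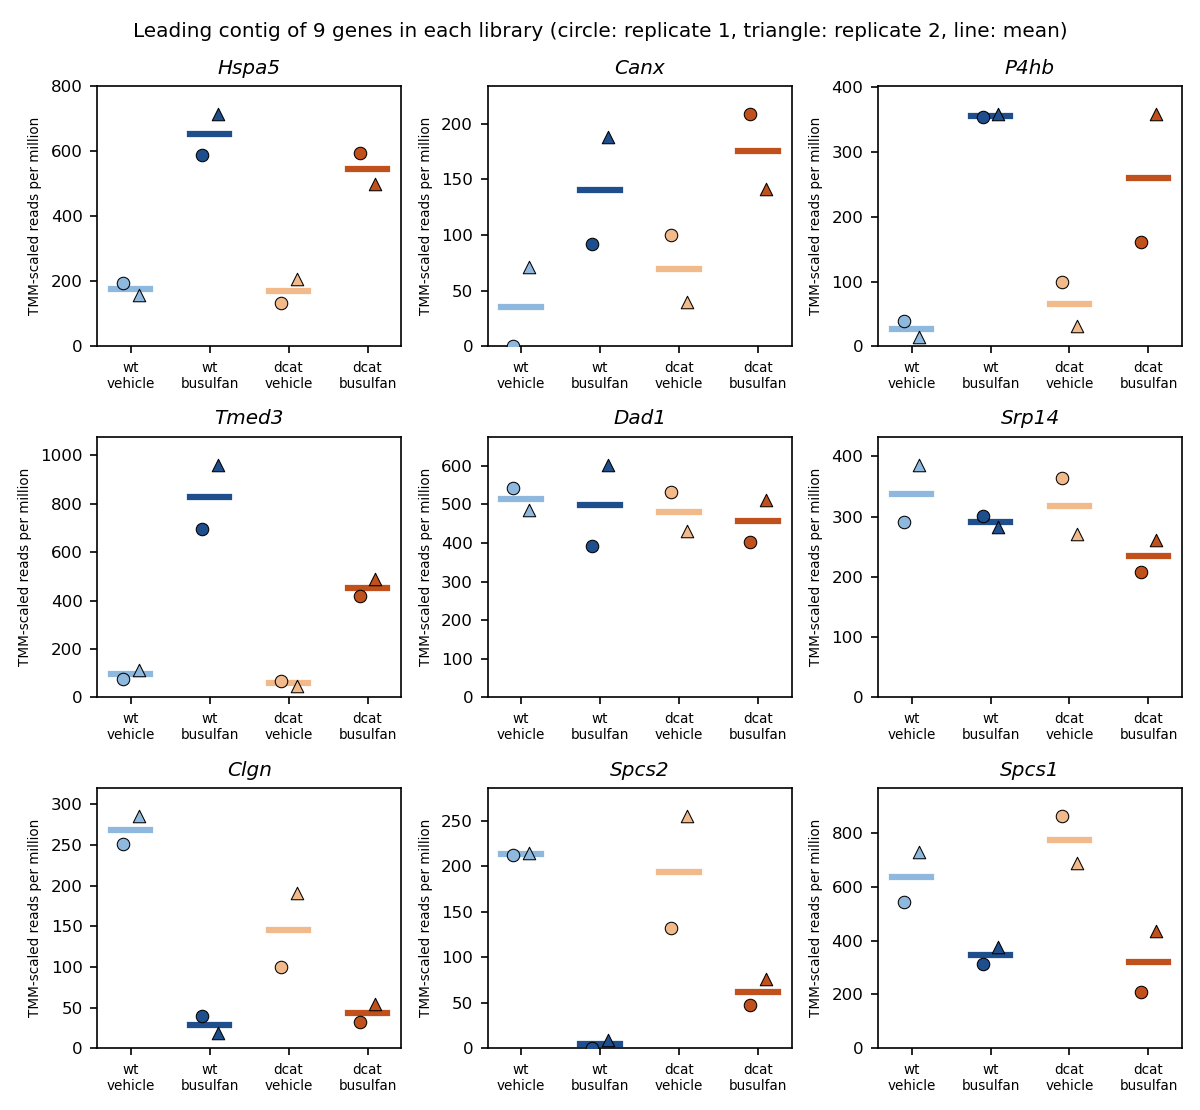
TMM-scaled RPM of the contig with the most reads for 9 genes, with circles for replicate 1, triangles for replicate 2 and lines at the mean of each group, each panel with its own axis from 0. The busulfan libraries of Hspa5, P4hb and Tmed3 lie above every vehicle library, those of Clgn, Spcs2 and Spcs1 lie below them, and those of Dad1 overlap them in both genotypes.

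Clgn moved the other way, and it entered the table through vehicle groups alone. It encodes calmegin, a homolog of calnexin made in meiotic and later male germ cells, where the ADAM proteins of the sperm surface need it to pair. Clgn (chr8:83389867-83428552, plus strand) stood at 252 and 286 scaled RPM with vehicle and 39.3 and 18.8 with busulfan in wt mice, and 99.6 and 192 with vehicle and 32.1 and 54.3 with busulfan in dcat mice. The groups did not overlap, and Clgn fell 9.34-fold in wt (log2 -3.22, SE 0.62, edgeR adjusted p = 7.02e-05) and 3.62-fold in dcat (log2 -1.86, SE 0.62, adjusted p = 0.0125). The difference between these changes was 1.37 (95% interval -0.64 to 3.38, adjusted p = 0.562 for the interaction). The dcat call was lost without dcat vehicle replicate 2 (-1.04, adjusted p = 0.485) and without dcat busulfan replicate 1 (-1.60, adjusted p = 0.0623). Genes of ADAM and other sperm proteins (Adam2, Adam3, Adam5, Adam32, Ace, Ly6k, Prss37 and Tex101) fell beside it. Of their contigs, 9 of 9 were called lower in wt and 6 of 9 in dcat, beside 38.3% and 31.4% of all contigs. Whether each of these proteins needs a germ-line chaperone was not tested. Of these 9, 8 had entered through vehicle groups alone, where 94.8% of all contigs were called lower in wt and 82.3% in dcat. The 8 gave 8 lower in wt and 5 in dcat, so that these counts say nothing particular of these genes. The sum of the 9 went in wt mice from 3941 ± 222 to 331 ± 2.72 RPM of all reads, and in dcat mice from 3096 ± 1319 to 871 ± 449.9. Adam3, needed for sperm to reach and bind the egg, changed by -4.39 (SE 0.55, adjusted p = 6.2e-07) and -2.62 (SE 0.48, adjusted p = 0.000188). Adam2, the beta subunit of fertilin, changed by -3.21 (SE 0.60, adjusted p = 5.34e-05) and -2.69 (SE 0.57, adjusted p = 0.000575). Late spermatid markers fell 10.3-fold in wt and 3.35-fold in dcat in the same libraries, and their part in the Clgn values was not tested.

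The translocon was called higher in 6 of 10 contigs and lower in 1 in wt, and higher in 4 of 10 and lower in 0 in dcat. Among all contigs, 35.4% were called higher and 38.3% lower in wt, and 31.3% higher in dcat. Of the 6 called higher in wt, Sec61b alone had met the read minimum under both treatments, after vehicle in dcat only. The other 5, like all 4 in dcat, entered through busulfan groups alone. Busulfan groups alone brought in 8 of the 10, and 69.8% of all such contigs were called higher in wt and 61.1% in dcat. The sum of the translocon went in wt mice from 884 ± 24.2 to 2355 ± 9.86 RPM of all reads, and in dcat mice from 1132 ± 264 to 2013 ± 258. Sec61a1, Sec61b and Sec61g encode the 3 subunits of the channel. Sec61b stood at 19.4 and 129 scaled RPM with vehicle and 445 and 480.1 with busulfan in wt mice, and 398 and 128 with vehicle and 434 and 304 with busulfan in dcat mice. Its treatments separated in wt (log2 2.50, SE 0.61, edgeR adjusted p = 0.00076) and overlapped in dcat, where the difference was 0.79 (SE 0.55, adjusted p = 0.207). The difference between genotypes in this change was -1.71 (95% interval -3.44 to 0.01, adjusted p = 0.312). The dcat vehicle libraries of Sec61b lay far apart, and its change in dcat was 1.51 (adjusted p = 0.0185) without dcat vehicle replicate 1 and -0.05 without replicate 2. Sec61g went in wt mice from 19.4 and 100.1 to 118 and 245 (1.51, SE 0.63, adjusted p = 0.0347) and in dcat mice from 99.6 and 128 to 177 and 163 (0.48, SE 0.57, adjusted p = 0.466). Sec61a1 went in wt mice from 96.8 and 100.1 to 209 and 245 (1.20, SE 0.52, adjusted p = 0.0420) and in dcat mice from 133 and 104 to 177 and 196 (0.74, SE 0.52, adjusted p = 0.216). These were weak calls. That of Sec61g was lost without wt vehicle replicate 1 (1.08, adjusted p = 0.149) or wt busulfan replicate 2 (0.84, adjusted p = 0.359), and that of Sec61a1 without any 1 of the 4 wt libraries (1.07 to 1.5, adjusted p of 0.0555 to 0.138) and with the replicate block (1.20, adjusted p = 0.0566).

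The Ssr genes encode the translocon-associated protein complex, which helps some signal peptides to open the channel. Ssr4 had 2 contigs (ENSMUST00000166518 and ENSMUST00000002090), which start at chrX:73787028 and chrX:73787062 and end within a few bases of each other. The aligner had to choose between them, so that their sum is the firmer value. The sum stood at 38.7 and 71.5 with vehicle and 445 and 489.6 with busulfan in wt mice, and 99.6 and 39.9 with vehicle and 321 and 315 with busulfan in dcat mice. Every busulfan library was above every vehicle library, with log2 changes of 3.08 (SE 0.54, edgeR adjusted p = 2.79e-05) in wt and 2.49 (SE 0.57, adjusted p = 0.00082) in dcat. The contig with more reads had 2 reads in wt vehicle against 54 after busulfan, a ratio of pooled reads of 17.97 (95% counting interval 4.74 to 152). Ssr3 went in wt mice from 58.1 and 28.6 to 249 and 367 (2.87, SE 0.68, adjusted p = 0.000596) and in dcat mice from 166 and 32.0 to 353 and 272 (2.26, SE 0.63, adjusted p = 0.00389). Without dcat vehicle replicate 2 the calls in dcat were lost for Ssr3 (0.97, adjusted p = 0.300) and for each Ssr4 contig (2.62, adjusted p = 0.0887, and 0.86, adjusted p = 0.574). Ssr1 was called higher in dcat (1.67, SE 0.54, adjusted p = 0.0101) and missed the threshold in wt (1.14, SE 0.54, adjusted p = 0.0616), and Ssr2 and Sec62 passed in neither. Tram1, a membrane protein beside the channel that some signal peptides need, was the member lower in wt, and entered through vehicle groups alone. It went in wt mice from 252 and 200.2 to 78.5 and 104 (-1.26, SE 0.54, adjusted p = 0.0394) and in dcat mice from 99.6 and 239.6 to 145 and 196 (-0.20, SE 0.50, adjusted p = 0.739). Its call was lost without any 1 of the 4 wt libraries, with values of -1.49 to -0.90 and adjusted p of 0.0812 to 0.212, and its value in dcat was 0.86 without dcat vehicle replicate 2.

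The signal peptidase was called lower after busulfan in 1 of 3 contigs in wt, that of Spcs2, and in 3 of 3 in dcat, beside 38.3% and 31.4% of all contigs. Spcs2 and the second Spcs1 contig entered through vehicle groups alone. The sum of the 3 went in wt mice from 982 ± 219 to 450.2 ± 37.2 RPM of all reads, and in dcat mice from 1287 ± 188 to 448 ± 127. Spcs1 and Spcs2 encode accessory subunits, and the catalytic subunits Sec11a and Sec11c were not analysed here. The leading Spcs1 contig (ENSMUST00000226782) stood at 542 and 729 scaled RPM with vehicle and 314 and 377 with busulfan in wt mice, and 863 and 687 with vehicle and 209 and 435 with busulfan in dcat mice. The treatments did not overlap, and the change missed the threshold in wt (-0.88, SE 0.41, edgeR adjusted p = 0.0541) and passed in dcat (-1.19, SE 0.41, adjusted p = 0.0163). It passed in wt with DESeq2's scaling method in edgeR (-1.01, adjusted p = 0.0164) and was lost in dcat without dcat busulfan replicate 1 (-0.79, adjusted p = 0.1404). A second contig (ENSMUST00000228767) ends at the same base, so that its reads share the 3′ part of the first, and fell in dcat (-2.005, SE 0.61, adjusted p = 0.00733) but not without dcat busulfan replicate 2 (-1.59, adjusted p = 0.0546). With both summed the changes were -0.75 (SE 0.37, adjusted p = 0.0687) in wt and -1.44 (SE 0.38, adjusted p = 0.00251) in dcat.

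Spcs2 was the member with the lowest fitted change in wt. Its contig (chr7:99839681-99863371, minus strand) begins with an upstream first exon at chr7:99863228-99863371. The longest other annotated transcript of the gene begins at a first exon at chr7:99858764-99858977 and was not among the contigs of the table. The Spcs2 values are therefore those of 1 transcript form, with a 3′ UTR of 19 bases. It had 11 and 15 reads with vehicle and 0 and 1 with busulfan in wt mice, and 4 and 32 with vehicle and 3 and 7 with busulfan in dcat mice, or 213 and 214, 0 and 9.41, 133 and 256, and 48.2 and 76.1 scaled RPM. The treatments did not overlap in either genotype. In wt the ratio of pooled reads, vehicle over busulfan, was 39.1 (95% counting interval 6.42 to 1601), with an edgeR adjusted p of 2.66e-05 for the fitted change. In dcat Spcs2 fell 3.39-fold (log2 -1.76, SE 0.56, adjusted p = 0.00926), and without dcat vehicle replicate 2 the value was -0.95 (adjusted p = 0.465).

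The oligosaccharyltransferase changed less. Its sum went in wt mice from 1224 ± 24.9 to 1711 ± 129 RPM of all reads, and in dcat mice from 1193 ± 109 to 1524 ± 155, with 2 of 5 contigs called higher in wt and 0 of 5 in dcat, beside 35.4% and 31.3% of all contigs. The 2 were Rpn2 and Ddost, which entered through busulfan groups alone. In dcat, 0 of the 5 had an unadjusted p under 0.05 in edgeR, and 0 were called by DESeq2. Rpn2, a ribophorin subunit, went in wt mice from 96.8 and 143 to 393 and 424 (1.73, SE 0.52, edgeR adjusted p = 0.0044) and in dcat mice from 99.6 and 232 to 193 and 348, where the treatments overlapped (0.52, SE 0.49, adjusted p = 0.358). The difference between genotypes in this change was -1.20 (95% interval -2.69 to 0.28, adjusted p = 0.459). Ddost, a subunit of the catalytic core, went in wt mice from 136 and 85.8 to 222 and 311 (1.31, SE 0.52, adjusted p = 0.0262) and in dcat mice from 166 and 159.8 to 209 and 272 (0.59, SE 0.49, adjusted p = 0.297). The Ddost call was lost without wt vehicle replicate 2 (1.25, adjusted p = 0.0822) or wt busulfan replicate 2 (1.03, adjusted p = 0.164).

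Dad1, a subunit named as a defender against cell death, stood at 542 and 486 with vehicle and 393 and 603 with busulfan in wt mice, and 531 and 431 with vehicle and 401 and 511 with busulfan in dcat mice. Its treatments overlapped in both genotypes, with differences of -0.03 (SE 0.39) and -0.02 (SE 0.40), both of which changed sign under other settings. Ost4, a small membrane subunit, overlapped too, at 213 and 229 against 131 and 245 in wt (-0.20, SE 0.50) and 133 and 288 against 257 and 293 in dcat (0.21, SE 0.48). Rpn1 stood at 232 and 300.3 with vehicle and 262 and 377 with busulfan in wt mice, and 166 and 199.7 with vehicle and 337 and 293 with busulfan in dcat mice, with differences of 0.26 (SE 0.44) and 0.72 (SE 0.47) that did not pass the test.

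The signal recognition particle had 5 contigs, of which 0 were called higher and 1 lower in each genotype, beside 38.3% of all contigs called lower in wt and 31.4% in dcat. Srp14 and Srp9 encode the pair of proteins on the Alu domain, which slows the ribosome. Srp14 stood at 291 and 386 scaled RPM with vehicle and 301 and 282 with busulfan in wt mice, and 365 and 272 with vehicle and 209 and 261 with busulfan in dcat mice, with differences of -0.23 (SE 0.43, edgeR adjusted p = 0.634) and -0.35 (SE 0.46, adjusted p = 0.515). The leading Srp9 contig stood at 252 and 615, 183 and 358, 465 and 511, and 337 and 283 in the same order (-0.68, SE 0.45, adjusted p = 0.175, and -0.68, SE 0.46, adjusted p = 0.191). The 1 call was the second Srp9 contig (ENSMUST00000111018), with an earlier 3′ end, which entered through vehicle groups alone. It stood at 58.1 and 186 with vehicle and 52.3 and 0 with busulfan in wt mice, and 365 and 128 with vehicle and 32.1 and 43.5 with busulfan in dcat mice (-2.48, SE 0.89, adjusted p = 0.0149, and -2.21, SE 0.75, adjusted p = 0.0143). That call was lost in wt without wt vehicle replicate 2 (-1.06, adjusted p = 0.526) or wt busulfan replicate 2 (-1.28, adjusted p = 0.225), and in dcat without dcat vehicle replicate 1 (-1.68, adjusted p = 0.0711). With the reads of both contigs summed, Srp9 changed by -0.84 (adjusted p = 0.0729) and -1.07 (adjusted p = 0.0287). Srp54a and Srp54b are near-identical paralogs whose reads can be split between them, and passed in neither genotype.

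The cargo and retrieval receptors were called higher in 6 of 8 contigs in wt and 4 of 8 in dcat, beside 35.4% and 31.3% of all contigs. All 8 entered the table through busulfan groups alone, where 69.8% of contigs were called higher in wt and 61.1% in dcat, so that these counts say nothing particular of the receptors. Their sum went in wt mice from 691 ± 141 to 2540 ± 59.2 RPM of all reads, and in dcat mice from 597 ± 31.8 to 1855 ± 137. The Tmed genes encode p24 proteins, which cycle between the ER and the Golgi in coated vesicles and sort cargo. Tmed3 stood at 77.5 and 114 scaled RPM with vehicle and 694 and 960.3 with busulfan in wt mice, and 66.4 and 47.9 with vehicle and 417 and 489 with busulfan in dcat mice. It rose 8.36-fold in wt (log2 3.06, SE 0.47, edgeR adjusted p = 6.55e-06) and 8.50-fold in dcat (log2 3.09, SE 0.55, adjusted p = 0.000145), with no overlap. Tmed9 rose in wt mice from 58.1 and 57.2 to 183 and 292 (2.04, SE 0.58, adjusted p = 0.00303) and in dcat mice from 33.2 and 32.0 to 177 and 206 (2.53, SE 0.66, adjusted p = 0.00251). Tmed10 had 2 contigs, of which that with more reads (ENSMUST00000222529) is annotated as a transcript with a retained intron. With both summed it rose by 1.73 (SE 0.40, adjusted p = 0.00055) and 1.49 (SE 0.42, adjusted p = 0.00426). Tmed7, whose contig is also annotated with a retained intron, rose in wt mice from 38.7 and 114 to 157 and 329.5 (1.60, SE 0.58, adjusted p = 0.0147) and in dcat mice from 33.2 and 24.0 to 193 and 163 (2.69, SE 0.75, adjusted p = 0.00399). In wt the Tmed7 call was lost without wt vehicle replicate 1 (1.31, adjusted p = 0.0719) or wt busulfan replicate 2 (0.93, adjusted p = 0.247). Without dcat vehicle replicate 2, the dcat calls of Tmed7 (2.42, adjusted p = 0.127) and Tmed9 (2.55, adjusted p = 0.0852) were lost.

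Of the coat and SNARE members, 1 of 3 was called higher in each genotype, beside 35.4% of all contigs in wt and 31.3% in dcat. It was Sec22b, a SNARE of ER-to-Golgi fusion that entered through busulfan groups alone, with changes of 2.00 (adjusted p = 0.0120) and 2.34 (adjusted p = 0.00369), named after its values were seen. Sec13, part of the COPII coat, and Sec23ip passed in neither.

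**Figure D3:**
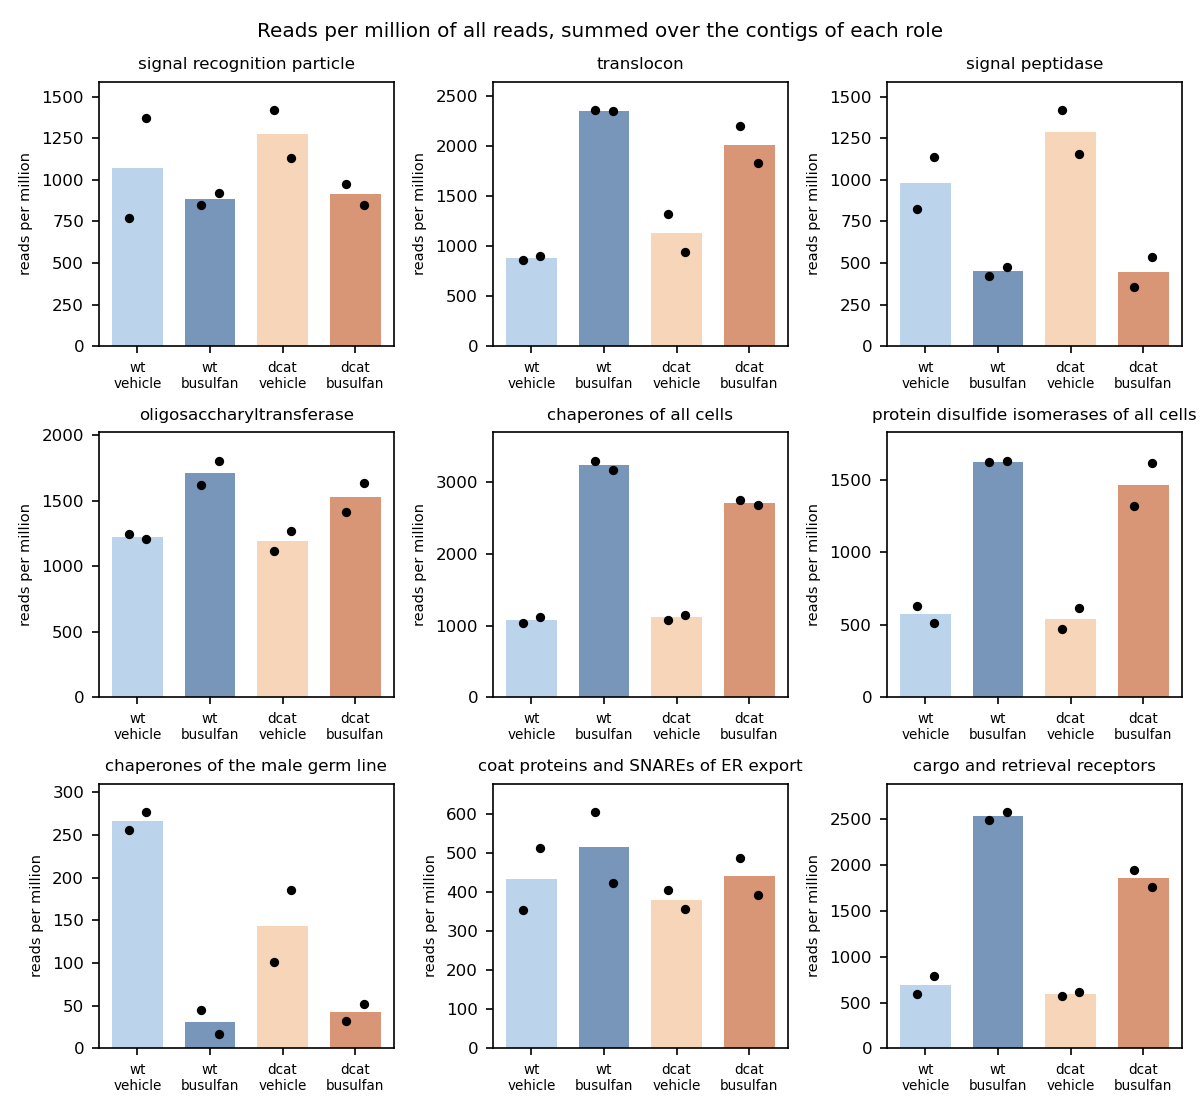
RPM of all reads, summed over the contigs of each role, with bars at the mean of 2 libraries, points for the libraries and an axis from 0 in each panel. Chaperones, disulfide isomerases, translocon and cargo receptors are higher after busulfan in both genotypes, the signal peptidase and Clgn are lower, and the group means of the signal recognition particle and the coat proteins lie at 883 to 1276 and 381 to 515.

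Other genes of the secretory route were taken from lists set by function, and their counts stand beside 35.4% of all contigs called higher and 38.3% lower in wt, and 31.3% and 31.4% in dcat. Of 12 contigs of other ER folding enzymes, 5 were called higher and 1 lower in wt, and 4 higher and 2 lower in dcat, and 5 of the 12 had met the read minimum under both treatments. Ppib, a prolyl isomerase of the ER, rose by 2.66 (SE 0.56, edgeR adjusted p = 0.00018) and 2.79 (SE 0.61, adjusted p = 0.000668), and Manf, a secreted factor of the ER stress response, by 1.42 and 1.67. Ero1lb, an oxidase that recharges disulfide isomerases, fell by 2.50 (SE 0.61, adjusted p = 0.000792) and 1.34 (SE 0.51, adjusted p = 0.0249) on the log2 scale. Of 5 contigs of glycan transfer and trimming, 1 was higher and 1 lower in wt, and 1 higher and 0 lower in dcat. Ostc, a subunit that ties the oligosaccharyltransferase to the translocon, rose by 1.74 and 1.83 (adjusted p of 0.0135 and 0.0175). Stt3b, the catalytic subunit of the enzyme form that acts after translocation, changed by -1.73 in wt (adjusted p = 0.00176) and by -0.94 in dcat (adjusted p = 0.0695).

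Of 8 contigs of ER degradation and the stress response, 5 were higher and 1 lower in wt, and 3 higher and 0 lower in dcat, with shares over all contigs as given for the folding enzymes. Xbp1, the factor whose mRNA is spliced when unfolded proteins accumulate, had 2 and 2 reads with vehicle and 12 and 24 with busulfan in wt mice, and 0 and 1 with vehicle and 12 and 13 with busulfan in dcat mice, with adjusted p of 0.00153 and 0.000415. Its spliced form was not measured here. Herpud1, a degradation factor known as a stress target, changed by -1.58 in wt (adjusted p = 0.0131) and -0.87 in dcat (adjusted p = 0.183). Bcap31, an ER membrane protein of quality control, rose by 3.32 (adjusted p = 0.000516) and 2.83 (adjusted p = 0.00252). Of 14 contigs of ER-to-Golgi transport, 7 were higher and 1 lower in wt, and 7 higher and 0 lower in dcat, among them Sar1b, the GTPase that starts the COPII coat (1.67 and 1.92). Of 7 contigs of membrane insertion, 3 were higher and 1 lower in wt, and 1 higher and 1 lower in dcat. Bag6, a chaperone that hands tail-anchored proteins to the ER and is also known for a role in meiosis, fell by 2.31 (adjusted p = 0.000269) and 1.19 (adjusted p = 0.0370), and Emc7 of the ER membrane complex rose by 1.55 and 1.48. Busulfan groups alone brought in 13 of the 14 contigs of ER-to-Golgi transport and 6 of the 8 of degradation. They also brought in 4 of the 7 of membrane insertion, 4 of the 5 of glycan transfer and 5 of the 12 folding enzymes. Among all contigs that entered in this way, 69.8% were called higher in wt and 61.1% in dcat. Of the genes named from these lists, Stt3b alone had met the read minimum under both treatments. Ero1lb, Herpud1 and Bag6 entered through vehicle groups alone, and Ppib, Manf, Ostc, Xbp1, Bcap31, Sar1b and Emc7 through busulfan groups alone.

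The genotypes were compared under each treatment to ask what the catalytic activity of Tent5c does with and without most of the germ cells. After busulfan, edgeR called 0 of the 44 members between dcat and wt, beside 5.82% of all 2783 contigs. At an unadjusted p under 0.05 there were 2 members, and DESeq2 called 0, with no adjusted p for 31 members. The median log2 difference, dcat minus wt, was -0.14 for the members and 0.20 for all contigs. The 2 members were Spcs2, at 3.22 (95% interval 1.00 to 5.44, adjusted p = 0.0713), and Tmed3, at -0.87 (-1.63 to -0.10, adjusted p = 0.177). The Spcs2 difference rested on 1 read in wt against 10 in dcat, and passed the threshold without dcat busulfan replicate 1 (3.46, adjusted p = 0.0398). Tmed3 passed when the fit was limited to the 4 busulfan libraries (-1.02, adjusted p = 0.00903). Markers of other cells differed between the genotypes in the same libraries. After busulfan, 14 of 27 late spermatid contigs were called higher in dcat (median log2 difference 2.30 over the 27), with the sums given above. Both erythroid contigs were called lower in dcat (median -6.24), with sums of 847 ± 108 RPM of all reads in wt and 10.3 ± 14.6 in dcat, and Hba-a2 was at 0 in both dcat libraries. The part of these markers in the member differences was not tested. For Hspa5, Hsp90b1 and Calr the differences, dcat minus wt, were -0.27 (-1.02 to 0.49), -0.31 (-1.01 to 0.40) and 0.12 (-0.63 to 0.87).

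After vehicle, 0 of 44 members were called by edgeR, beside 0% of all contigs, and 0 had an unadjusted p under 0.05, as with DESeq2. The differences ran from -1.59 to 1.36. For the interaction of genotype and busulfan, edgeR called 0 of 44 members, beside 0.323% of all contigs. DESeq2 also called 0, and 1 member had an unadjusted p under 0.05, Spcs2 at 3.17 (95% interval 0.71 to 5.62, adjusted p = 0.160). Without dcat vehicle replicate 2 the interaction was called for Sec61b (-2.78, adjusted p = 0.0393). Intervals of this width do not show that the genotypes were alike.

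Tails of the member reads were shorter on average after busulfan in both genotypes, as were those of all reads of nuclear genes. The mean tail of member reads was 142.6 and 147.9 nt with vehicle and 127.5 and 134.8 with busulfan in wt mice, and 146.7 and 149.9 with vehicle and 138.6 and 135.8 with busulfan in dcat mice. For all nuclear reads, a comparison chosen after seeing the data, it was 142.4 and 144.2, 120.4 and 123.8, 138.7 and 147.9, and 119.8 and 122.5. The treatments did not overlap in either set, and each of the 8 libraries had a longer mean tail on its member reads than on all its nuclear reads. The share of member reads with tails of 30 to 120 nt went from 38.5 ± 2.34% to 44.7 ± 4.43% in wt (SD, n = 2) and from 32.8 ± 0.689% to 43.2 ± 1.83% in dcat. For all nuclear reads it went from 32.5 ± 0.471% to 50.7 ± 1.24% and from 33.3 ± 4.85% to 51.3 ± 2.77%. The contigs that supply the member reads differ between treatments, and neither the shares nor the difference between the 2 sets was tested.

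**Figure D4:**
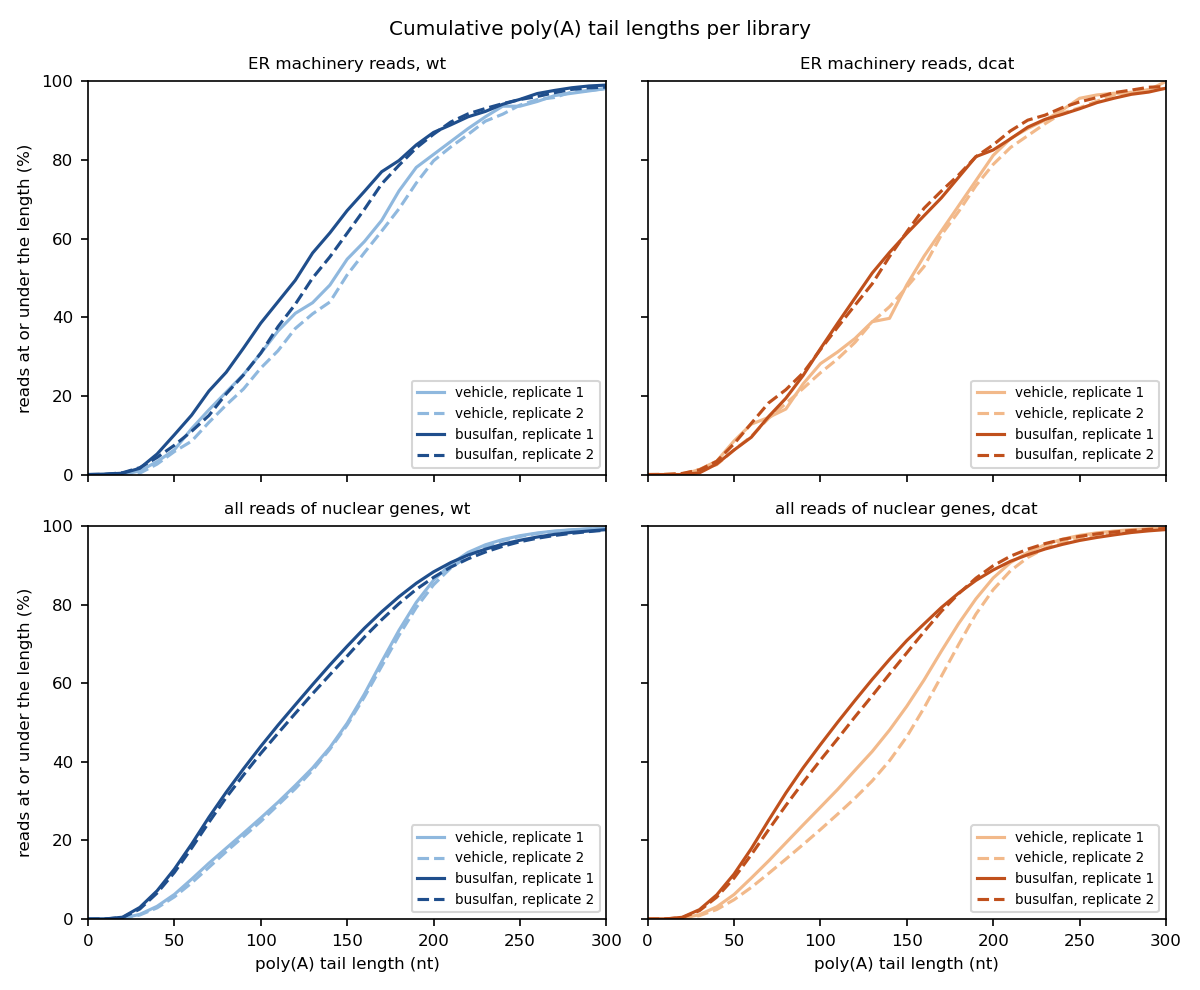
Cumulative share of reads (%) at or under each poly(A) tail length (nt) in every library, for reads on the 44 member contigs (top) and for all reads of nuclear genes (bottom), in wt (left) and dcat (right). At 150 nt the busulfan curves lie above the vehicle curves in all 4 panels, and the gap is wider for all nuclear reads than for member reads.

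Single contigs were tested with limma where each library of a contrast had at least 10 reads. In wt, 12 members could be tested and 2 were called shorter after busulfan, beside 39.1% of 527 contigs. In dcat, 6 could be tested and 1 was called shorter, beside 19.5% of 441 contigs. The median difference was -12.1 nt over the 12 (-19.9 over all) and -10.5 nt over the 6 (-17.2 over all). Spcs1 (ENSMUST00000226782, the 3′ end shown above) was called in both genotypes. Its mean tail was 174.5 and 159.9 nt with vehicle and 117.2 and 127.6 with busulfan in wt mice, and 157.9 and 158.2 with vehicle and 113.0 and 119.5 with busulfan in dcat mice. The difference was -44.8 nt (95% interval -66.3 to -23.3, limma adjusted p = 0.00496) in wt and -41.7 nt (-67.6 to -15.9, adjusted p = 0.0321) in dcat. In dcat it was lost without either vehicle library (-41.9, adjusted p = 0.0805, without replicate 1 and -41.6, adjusted p = 0.0984, without replicate 2) and without busulfan replicate 1 (-38.5, adjusted p = 0.0992). The read change of the same contig passed the test in dcat and missed it in wt. With the tails of both Spcs1 contigs pooled, limma gave -44.3 nt (adjusted p = 0.00256) in wt and -35.5 nt (adjusted p = 0.0447) in dcat.

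The second call in wt was the leading Hspa5 contig, at 142.3 and 185.9 nt after vehicle and 127.2 and 123.1 after busulfan (-38.9, interval -67.3 to -10.6, adjusted p = 0.0331). It rested on wt vehicle replicate 2, without which the difference was -17.1 (adjusted p = 0.151), and was also lost without wt busulfan replicate 2 (-36.9, adjusted p = 0.0765). The other Hspa5 contig had 130.8 and 155.5 against 168.8 and 130.4 nt (6.46, interval -22.3 to 35.3), and with both pooled the difference was -15.7 (adjusted p = 0.240). Hsp90b1 stood at 131.6 and 149.0 against 123.8 and 139.0 nt (-8.96, interval -28.5 to 10.6), Pdia3 at 124.4 and 144.6 against 123.5 and 121.5 (-12.0, interval -33.3 to 9.37), and Dad1 at 140.9 and 135.5 against 124.0 and 125.8 (-13.3, interval -32.7 to 6.11). These 3 were tested in wt and did not pass, and their treatments overlapped for Hsp90b1 but not for Pdia3 and Dad1. The methods' two-sample test, unadjusted, called Dad1 (p = 0.0430 over 2 against 2 libraries, where an exact permutation test cannot go below 0.333).

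Between genotypes after busulfan, 28 members could be tested and limma called 0, beside 1.35% of 1188 contigs. At an unadjusted p under 0.05 there were 4, and the median difference, dcat minus wt, was 3.22 nt, against 2.85 over all contigs. The 4, named after their values were seen, were Calr (120.7 and 114.7 nt in wt, 143.6 and 136.5 in dcat, a difference of 22.3, interval 6.04 to 38.6), Hsp90b1 (16.8, interval 1.54 to 32.1), Srp14 (33.5, interval 1.48 to 65.6) and the second Hspa5 contig (-24.1, interval -47.2 to -1.02). Their adjusted p values were 0.308 to 0.560. The methods' two-sample test, unadjusted, called Calr alone (p = 0.0404 over 2 against 2 libraries, where an exact permutation test cannot go below 0.333). After vehicle 4 members could be tested, and limma called 0, with 0 at an unadjusted p under 0.05, beside 0.139% of 720 contigs. For the interaction the same held for 4 members, beside 0.885% of 339 contigs. The intervals for Dad1, at -5.37 nt (-25.0 to 14.2) after busulfan and -13.7 nt (-36.4 to 9.09) after vehicle, show the precision that these depths allow.

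**Figure D5:**
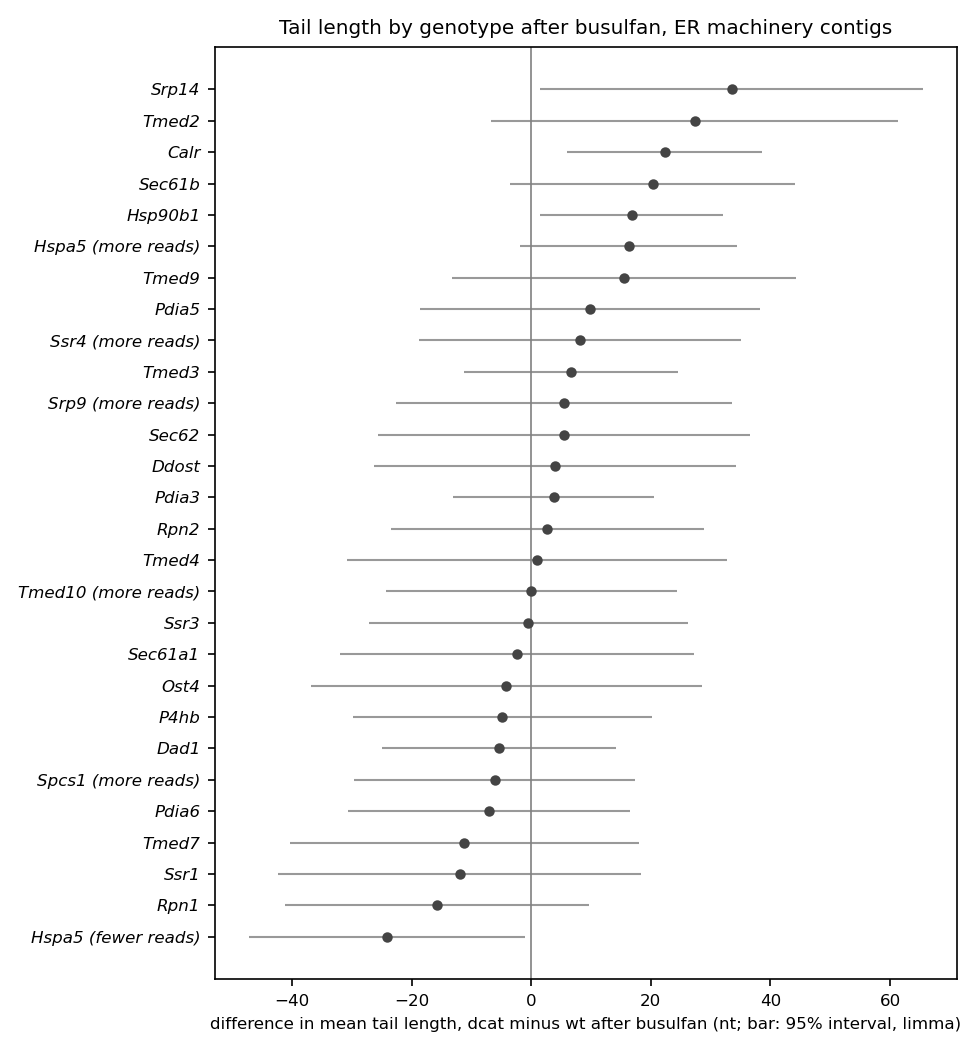
Difference in mean poly(A) tail length (nt), dcat minus wt after busulfan, for the 28 member contigs with at least 10 reads in each busulfan library, with points at the limma estimate and bars for the 95% interval. The differences run from -24.1 to 33.5 nt, and the intervals of Srp14, Calr, Hsp90b1 and the second Hspa5 contig leave out 0 before adjustment.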

How the data were processed

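Per the methods of the study, basecalling by Guppy was followed by Minimap2 alignment to transcripts of GENCODE on GRCm38 and by barcode calling with Deeplexicon, and the authors required a passing tail and a barcode confidence above 0.85. The deposited table held whole-number read counts for 2783 contigs, each at 10 reads or more in every library of some group. The deposited table of 621202 reads held the authors' Nanopolish tail length per read, in nt. Deposited DESeq2 fold changes and p-values of dcat against wt were not used.

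Counts of all contigs were tested with edgeR 4.0.16 in R 4.3.3 (quasi-likelihood F tests, TMM scaling, 8 libraries as 4 groups), and mean tails per contig and library with limma 3.58.1 (lmFit, eBayes with a trend), with at least 10 reads in each library of the contrast. Tests were two-sided, with Benjamini-Hochberg adjustment over all contigs tested and a threshold of 0.05. Scripts were tested on simulated data. DESeq2 1.42.0, other scaling, filters and read minimums, and each library left out were alternatives. P-values rest on the spread between the 2 mice of a group, pooled over the groups of the fit and moderated over contigs. Intervals of shares and of pooled reads cover counting error only. Levels of different genes were not compared, since reads were not scaled by length. A read of a part shared by several contigs went to 1 of them.

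Per the labels, each of 2 multiplexed libraries, numbered as the replicates, held 4 extracts, 1 mouse per group, which pairs the samples by library. Deviations of same-numbered samples correlated between -0.242 and 0.286 over 339 contigs, and between 0.0061 and 0.0618 for tails. In read counts the values were -0.107, -0.107 and -0.242 for pairs with the wt vehicle group, and 0.177, 0.226 and 0.286 among the other groups. Whether the numbers of the wt vehicle samples follow the libraries was not tested. The members, gene lists, tests and alternatives were chosen with earlier results of these data known. Named were a fixed list of member genes, each by its contig with the most reads, then up to 4 further called contigs per direction and contrast whose groups did not overlap, and any second contigs. Marker lists of other cells gave, per genotype (wt, then dcat), 2 of 2 peritubular and 7 of 7 macrophage contigs higher in both, 6 of 6 round spermatid contigs lower in both, 5 and 3 spermatocyte and 27 and 19 of 27 late spermatid contigs lower, and 2 and 0 of 2 erythroid contigs higher.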

Additional observations from a re-analysis of the deposited data

How the results depend on the processing

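Of 42 called read changes of named contigs, 14 kept their direction and their side of the threshold in every alternative run. These were, in wt, the leading contigs of Hspa5, Hsp90b1, Calr, P4hb, Clgn, Sec61b, Ssr4, Rpn2, Tmed10, Tmed3, Ssr3, Pdia5 and Spcs2, and in dcat Tmed3. Of the 14, the wt changes of Hspa5, Hsp90b1, Calr and Sec61b were those of contigs over the read minimum under both treatments. For Calr and Sec61b the vehicle group over the minimum was that of dcat, not of wt. The other 10 entered the table through the treatment in which they were higher, so that for these the alternatives are no independent check. The other 28 lost the threshold in at least 1 alternative, and 0 of the 42 changed sign. The number of members called was 13 in wt and 6 in dcat with DESeq2, and 6 in each among contigs over the read minimum under both treatments. With each library left out in turn it was 16 to 25 in wt mice and 9 to 22 in dcat mice. For dcat against wt after busulfan, 1 member (Tmed3) was called in a fit of those libraries alone, and 0 to 1 with a library left out. For the interaction, 0 to 1 were called. With the replicate block, 25 were called in wt and 21 in dcat, and among the named contigs the calls of Sec61a1 in wt and Canx in dcat were lost and no other. With the wt vehicle numbers crossed, an alternative added after seeing the data, 28 and 22 were called. The scaling of DESeq2 moved the median of all contigs by -0.12 in wt and -0.21 in dcat, and 25 and 20 members were called under it. The cause of the lower counts was not tested. Without mitochondrial contigs the share of reads on members was 1.57% (wt busulfan), 0.809% (dcat vehicle) and 1.34% (dcat busulfan).

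Of the 2 tails called in wt, 1 was called with median tails, with at least 20 reads, with at least 5 reads, without the trend and in a fit of all 8 libraries, 0 with libraries centred on their medians, and 1 to 2 with a library left out. In dcat 0 were called with at least 5 reads and 0 to 1 with a library left out (Tmed4, -65.0 nt, without dcat vehicle replicate 1), and with centred libraries the 1 call was Srp14, longer by 53.4 nt (adjusted p = 0.00786), in place of Spcs1. With at least 20 reads, no member could be tested in dcat after busulfan against vehicle or for the interaction. For dcat against wt after busulfan, the methods' two-sample test, unadjusted, gave 1.

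Log2 changes that did not pass the test changed sign in these settings. With edgeR's filter on low counts, Dad1 was at 0.23 in wt and 0.0615 in dcat, Ost4 at 0.0618 in wt and Srp14 at 0.0345 in wt. With the scaling of DESeq2, Ost4 was at -0.0220 in dcat. With each library left out in turn, the ranges in wt were -0.38 to 0.25 for Dad1, -0.75 to 0.14 for Ost4, -0.0391 to 0.74 for Rpn1, -1.27 to 0.39 for Srp9, -0.27 to 0.29 for Srp14 and -1.51 to 0.97 for the second Spcs1 contig. In dcat they were -0.0500 to 1.51 for Sec61b, -0.47 to 0.86 for Tram1, -0.21 to 0.13 for Dad1, -0.0461 to 1.13 for Ost4 and -0.0102 to 1.53 for Rpn2. Depth limits these results, since 8 to 41 members had 10 reads or more in a library.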
